A study of Mus musculus with 6 samples.

Results

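The genes described here are 10 members of the cAMP signaling pathway that were picked by symbol, with earlier results of these data known: the protein kinase A (PKA) catalytic subunit genes *Prkaca* and *Prkacb*, the regulatory subunit genes *Prkar1a*, *Prkar1b*, *Prkar2a*, and *Prkar2b*, the anchoring protein gene *Akap5*, and the CREB factor genes *Creb1*, *Crem*, and *Crtc1*. All 10 were among the 14477 genes for which the authors deposited values. The values came from RNA-Seq of hippocampal tissue, with 1 library per mouse. The Phf21bΔ4/Δ4 genotype is represented by replicates 2, 3, and 6, and the Phf21b+/+ genotype by replicates 5, 7, and 8. Both genotypes were untreated adult littermates on a C57BL/6J background. The Phf21bΔ4/Δ4 mice carry a whole-body deletion in a coding exon of *Phf21b*, a gene for a PHD finger protein, made with CRISPR/Cas9. The deletion shifts the reading frame, and the animals retain reduced amounts of the transcript, so the line is a model of depletion and not of complete loss. The deletion is not restricted to any cell type, and the sex of each sequenced mouse is not given in the labels.

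In its resting form, PKA is a holoenzyme of a pair of regulatory subunits that hold and inhibit a pair of catalytic subunits. When a receptor coupled to adenylyl cyclase raises cAMP, the regulatory subunits bind the messenger and the catalytic subunits become active. Holoenzymes with RI subunits (*Prkar1a* and *Prkar1b*) respond to lower cAMP than those with RII subunits (*Prkar2a* and *Prkar2b*), and RII subunits bind A-kinase anchoring proteins more tightly. AKAP5, known as AKAP79 in humans and AKAP150 in rodents, holds RII holoenzymes at the postsynaptic membrane of excitatory synapses together with the phosphatase calcineurin and protein kinase C. In the nucleus, PKA phosphorylates CREB, which binds the cAMP response element in promoters, and CRTC1 is a coactivator that enters the nucleus when the kinases that hold it in the cytoplasm are inhibited and calcineurin is active. In the hippocampus, this pathway is best known for its part in long-term potentiation and memory.

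The libraries held 20495605 to 24881257 reads on listed genes, of which 1.04% to 1.86% were mitochondrial. *Phf21b* itself, whose values check the labels, had a mean level of 3.20 CPM (reads scaled to library size) in Phf21bΔ4/Δ4 and 6.07 CPM in Phf21b+/+ hippocampi, with no overlap between the genotypes (log2 change -0.96, FDR 0.14, limma). Choroid plexus markers stood apart in 2 libraries: they summed to 15968 CPM in Phf21b+/+ replicate 7 and to 1006 CPM in replicate 8, against 28.0 to 87.8 CPM in the other 4 mice. Medial habenula markers, which belong to a structure next to the hippocampus, summed to between 383 and 485 CPM in the Phf21b+/+ mice and to between 55.4 and 86.9 CPM in the Phf21bΔ4/Δ4 mice, and 17 of the 20 were called lower. Thalamus markers summed to 587 to 923 CPM in the former and 318 to 408 CPM in the latter, with 3 of 13 called lower. By the same rule, 0.663% of all listed genes were called lower. Most of the habenula markers and some thalamus markers are in the study's own list of changed genes, drawn from the same mice. Of the markers of the labelled tissue itself, all 14 of dentate granule cells and all 15 of CA2 and CA3 pyramidal neurons were among the listed genes. So were the 13 of CA1 pyramidal neurons, with *Nov* counted under its other symbol, *Ccn3*. As the tissue is bulk hippocampus, fewer cells of a type and less RNA per cell cannot be told apart in any of these values.

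Of the 10 genes, 1 changed: *Akap5* was higher in the Phf21bΔ4/Δ4 hippocampus. A gene was called at an FDR under 0.1 and a change above 1.3-fold, with limma's moderated test on the deposited log2 CPM and Benjamini-Hochberg adjustment over all 14477 genes. By the same rule, 1.22% of all listed genes were called, 0.553% as higher and 0.663% as lower. The genotypes did not overlap in 5 of the 10 genes, with *Akap5*, *Prkar1a*, and *Prkar1b* higher and *Prkar2a* and *Creb1* lower in each Phf21bΔ4/Δ4 mouse than in each Phf21b+/+ mouse. Over all listed genes, 31.0% did not overlap, 15.0% as higher and 16.0% as lower. The log2 change was positive in 7 of the 10 genes and negative in 3, with a median of 0.11, against a median of -0.02 over all listed genes. A single gene tested by exact permutation cannot give a p below 0.1 with 3 mice in each genotype.

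**Figure D1:**
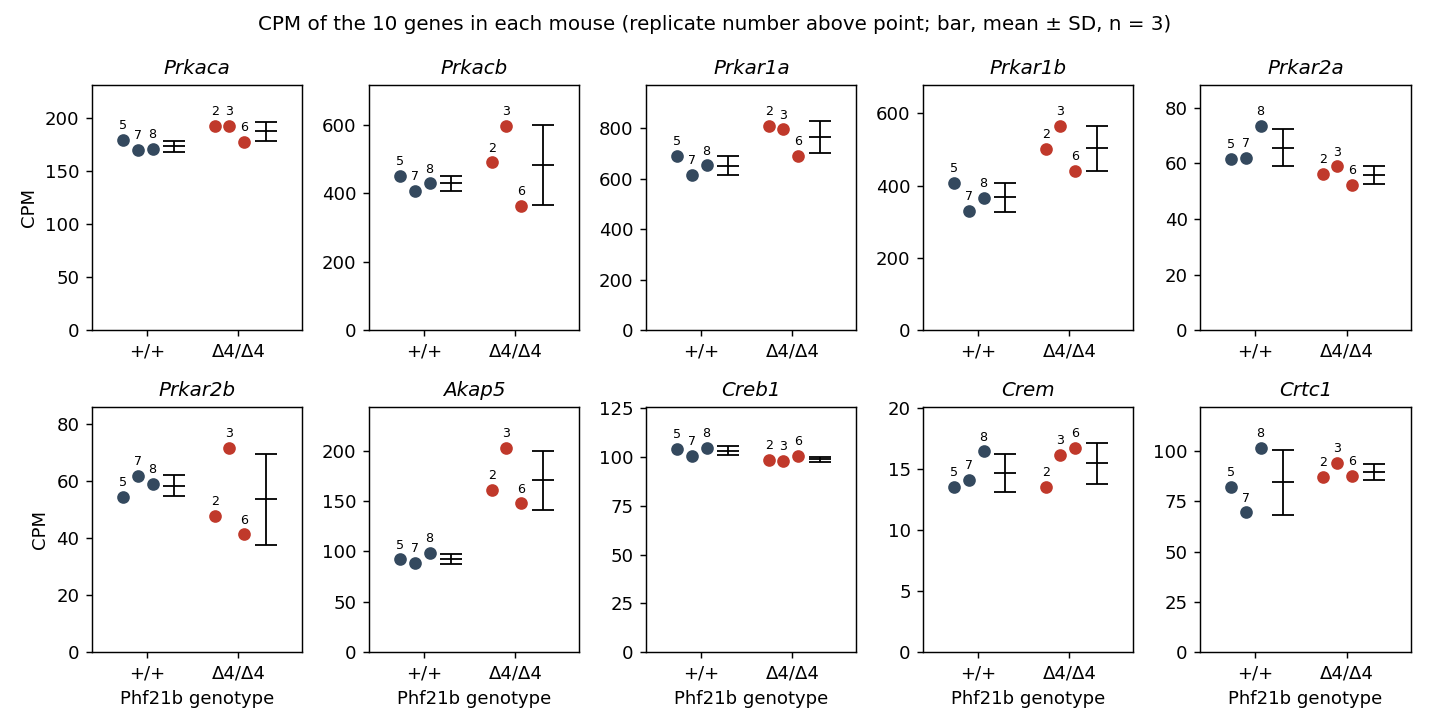
Each panel plots the CPM of 1 gene (vertical axis, from 0) in the 3 Phf21b+/+ and 3 Phf21bΔ4/Δ4 mice, with the replicate number above each point and the mean ± SD (n = 3) beside each group. *Akap5* lies between 147.6 and 202.8 CPM in Phf21bΔ4/Δ4 and between 88.3 and 98.2 CPM in Phf21b+/+ mice, while *Prkacb* and *Prkar2b* spread widely among the Phf21bΔ4/Δ4 mice.

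*Akap5* (ENSMUSG00000021057.15) is a plus-strand gene on chromosome 12 (GRCm38, 76324891 to 76334153). Its level was 160.7, 202.8, and 147.6 CPM in Phf21bΔ4/Δ4 replicates 2, 3, and 6, and 92.2, 88.3, and 98.2 CPM in Phf21b+/+ replicates 5, 7, and 8. The genotypes were far apart, with the lowest Phf21bΔ4/Δ4 mouse above the highest Phf21b+/+ mouse, and the spread was wider among the Phf21bΔ4/Δ4 mice. The means were 170.4 ± 28.8 CPM (SD, n = 3) and 92.9 ± 4.96 CPM (SD, n = 3), and between 1942 and 4257 reads stood behind each value. The fitted change was 1.82-fold, with a 95% interval of 1.48 to 2.24 (log2 change 0.86, SE 0.13, FDR 0.067, limma). The change stood at the 98.3 percentile of all log2 changes, and *Akap5* ranked 60 by p. The call was lost when any of 4 mice was left out: the FDR was 0.21 without Phf21bΔ4/Δ4 replicate 2, and 0.11, 0.24, and 0.23 without Phf21b+/+ replicates 5, 7, and 8, respectively. The log2 change stayed between 0.73 and 0.96 with any 1 mouse left out.

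Markers of CA1 pyramidal neurons were higher in the same mice. The 13 listed CA1 markers summed to 1754, 1942, and 1634 CPM in Phf21bΔ4/Δ4 replicates 2, 3, and 6, and to 820, 714, and 883 CPM in Phf21b+/+ replicates 5, 7, and 8, a ratio of means of 2.20. All 13 had a positive log2 change, with a median of 1.22, and 3 were called, *Fibcd1*, *Mpped1*, and *Gpr161*. Of the 3 with the most reads, *Fibcd1* and *Mpped1* had log2 changes of 1.51 (FDR 0.062, limma) and 1.42 (FDR 0.072, limma), and *Itpka* overlapped between the genotypes (0.30, FDR 0.40, limma). The genotypes did not overlap in 5 of the 13, all higher, against 15.0% of all listed genes as higher. The rest overlapped, so the rise in the sum was not seen in every marker of every mouse. The order of the 6 mice in *Akap5* was the same as their order in the summed CA1 markers. Per 100 CPM of summed CA1 markers, *Akap5* had 9.16, 10.4, and 9.03 CPM in the Phf21bΔ4/Δ4 mice. In the Phf21b+/+ mice it had 11.2, 12.4, and 11.1 CPM, so that this ratio was lower in each Phf21bΔ4/Δ4 mouse. The direction of the ratio depends on which markers are summed. Log2 changes of the 13 markers ran from 0.17 to 1.87, against 0.86 for *Akap5*. Dentate granule cell markers went the other way. All 14 had a negative log2 change (median -0.98), and 0 of them passed by limma or by voom. An unadjusted p under 0.05 was found by limma in 12 of the 14 (85.7%), against 23.6% of all listed genes. The 14 dentate markers summed to between 829 and 1532 CPM against 1733 to 1911 CPM in Phf21b+/+ mice. The 3 with the most reads, *Ahcyl2*, *Rfx3*, and *Sema5a*, had log2 changes of -0.53 to -0.97. The 15 markers of CA2 and CA3 pyramidal neurons had a median log2 change of -0.48, with 12 negative and 3 positive, and 0 were called. All 14 interneuron markers had a positive log2 change (median 0.65), and 1 of them, *Gad2*, was called. The part of these markers in the *Akap5* result was not tested.

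**Figure D2:**
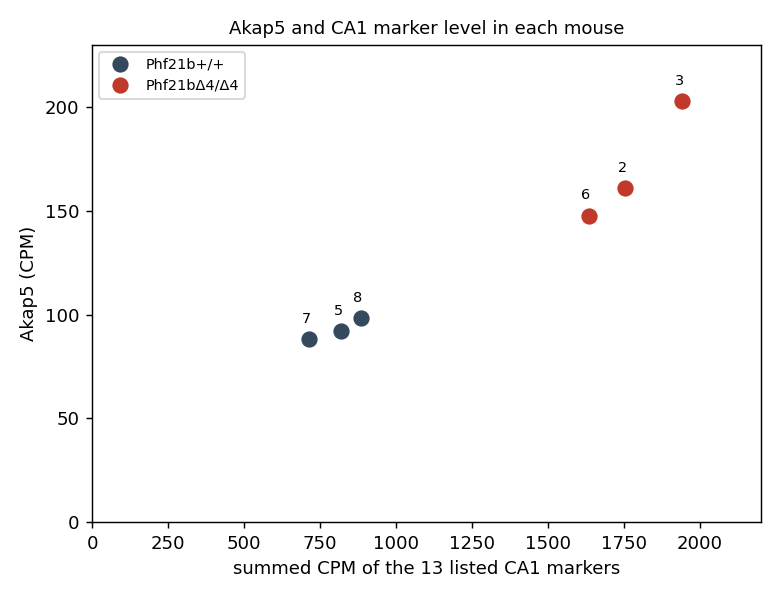
*Akap5* CPM (vertical axis) is plotted against the summed CPM of the 13 listed CA1 pyramidal neuron markers (horizontal axis) for each of the 6 mice, labelled by replicate number and coloured by genotype. The 3 Phf21bΔ4/Δ4 mice, at 1634 to 1942 CPM of CA1 markers, all lie above and to the right of the 3 Phf21b+/+ mice, at 714 to 883 CPM.

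The genes whose log2 CPM followed *Akap5* most closely over the 6 mice were *Htr1a* (Pearson's r 0.998), *Trib1* (0.995), *Eif2ak1* (0.994), *Pld3* (0.992), and *Kpna6* (0.991). These correlations describe 6 libraries that fall into 2 groups and were picked as the highest of all genes, so they carry no test. *Htr1a*, the serotonin 1A receptor, which lowers cAMP through an inhibitory G protein, had a mean of 51.4 CPM in Phf21bΔ4/Δ4 and 25.5 CPM in Phf21b+/+ mice (log2 change 1.004, FDR 0.058, limma). *Pld3*, a lysosomal nuclease, had means of 422 and 290 CPM (log2 change 0.54, FDR 0.069, limma). The other 3 were not called, with log2 changes of 0.28 to 0.30.

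The promoter of *Akap5* is shown because it is the member that was called. RefSeq promoter windows on GRCm38.p6 run from 250 bases before to 50 bases after each transcript start, and 9 of the 10 genes had at least 1 window, 22 in all. The stretch before the start, chr12:76324641-76324890 on the plus strand, is printed 5′ to 3′ with GC boxes (GGGCGG, or CCGCCC on the other strand) in capitals.

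Akap5: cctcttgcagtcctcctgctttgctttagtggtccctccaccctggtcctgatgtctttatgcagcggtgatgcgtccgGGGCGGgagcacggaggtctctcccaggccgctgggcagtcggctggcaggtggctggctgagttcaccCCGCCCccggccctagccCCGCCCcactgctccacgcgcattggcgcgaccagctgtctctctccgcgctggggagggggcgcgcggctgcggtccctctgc

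It held 3 GC boxes, the first letters of which lie 171, 102, and 84 bases before the start. GC boxes were found in 35.7% of all 32851 windows and in 60.4% of the 14533 windows of listed genes. Neither the full cAMP response element (TGACGTCA, its own reverse complement) nor its half-site (TGACG, or CGTCA on the other strand) was in this window, which says only that these letters are absent from these 300 bases.

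The RI subunit genes had the most regulatory subunit transcript and were the ones with higher levels in Phf21bΔ4/Δ4 mice, although neither passed the test. *Prkar1b* encodes the neuronal RIβ subunit. It lies on chromosome 5 from 139017306 to 139150001 (minus strand). The level was 501.7, 565.6, and 441.3 CPM in Phf21bΔ4/Δ4 replicates 2, 3, and 6, and 408.5, 329.6, and 365.0 CPM in Phf21b+/+ replicates 5, 7, and 8. The genotypes did not overlap, and the gap between the nearest mice was smaller than the spread within either genotype. The means were 502.8 ± 62.1 CPM and 367.7 ± 39.5 CPM (SD, n = 3 each), a 1.37-fold difference with a 95% interval of 1.11 to 1.68 (log2 change 0.45, FDR 0.15, limma). *Prkar1b* passed the test without Phf21bΔ4/Δ4 replicate 6 (log2 change 0.54, FDR 0.045, limma). It also passed with the mice weighted by arrayWeights, which gives less weight to mice far from the fit (0.46, FDR 0.016). The largest weight, 4.63, went to Phf21b+/+ replicate 8. Both settings called many more genes, 2830 without Phf21bΔ4/Δ4 replicate 6 and 3549 with arrayWeights, against 176 with the values as deposited. Passing there is therefore not particular to *Prkar1b*. After quantile normalization the log2 change of *Prkar1b* was 0.20 (FDR 0.29, limma). Per 100 CPM of summed CA1 markers, *Prkar1b* was lower in each Phf21bΔ4/Δ4 mouse, at 27.0 to 29.1 CPM against 41.3 to 49.8 CPM. This ratio, too, depends on which markers are summed. Of the *Prkar1b* exon bases, 341 are shared with *Gm15672* on the same strand, which was not among the listed genes.

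*Prkar1a* encodes RIα, the regulatory subunit that is made in nearly all cells. It lies on chromosome 11 from 109649405 to 109669656 on the plus strand. Its level was 809.5, 795.2, and 691.0 CPM in Phf21bΔ4/Δ4 replicates 2, 3, and 6, and 688.8, 614.0, and 652.5 CPM in Phf21b+/+ replicates 5, 7, and 8. Replicate 6 of the Phf21bΔ4/Δ4 mice and replicate 5 of the Phf21b+/+ mice all but touched. The difference was 1.17-fold, with a 95% interval of 0.988 to 1.39 (log2 change 0.23, FDR 0.23, limma), and it turned to -0.03 on the log2 scale after quantile normalization.

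The promoters of both RI genes, picked by name, are shown with the full element, its half-site, and the GC boxes in capitals. Each of these genes had several windows. The window printed was chosen for a full element, or else a half-site, nearest before its start. That it holds such a match was therefore fixed by the choice. Half-sites before a transcript start were also found in *Prkaca*, *Prkacb*, and *Prkar2a*, so they are not particular to the RI genes. Both stretches are printed 5′ to 3′ up to the first annotated exon base. The *Prkar1a* stretch is chr11:109650699-109650920 on the plus strand, which ends 29 bases before the start of this transcript. The *Prkar1b* stretch is chr5:139150002-139150222 on the minus strand, which ends 1 base before the start.

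Prkar1a: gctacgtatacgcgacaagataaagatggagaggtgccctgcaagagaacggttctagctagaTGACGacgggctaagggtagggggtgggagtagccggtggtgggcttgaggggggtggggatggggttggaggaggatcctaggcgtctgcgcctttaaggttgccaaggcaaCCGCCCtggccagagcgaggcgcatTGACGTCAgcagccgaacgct

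Prkar1b: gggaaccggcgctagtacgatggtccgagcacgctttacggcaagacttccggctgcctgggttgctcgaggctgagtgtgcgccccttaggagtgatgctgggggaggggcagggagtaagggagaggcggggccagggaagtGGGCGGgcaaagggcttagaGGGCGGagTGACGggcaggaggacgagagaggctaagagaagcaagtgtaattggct

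The full element TGACGTCA begins 49 bases before the start in *Prkar1a*, which also held a half-site 187 bases and a GC box 74 bases before it. A second, overlapping *Prkar1a* window held the same element, and these 2 were the ones with a full element among the 22 windows. The full element was found in 1.79% of all windows and in 2.90% of those of listed genes. The *Prkar1b* window shown, chosen for its half-site, held it at 49 bases and GC boxes at 77 and 57 bases before the start. Half-sites were found in 7 of the 22 windows, from 5 of the genes, in 20.8% of all windows, and in 29.5% of those of listed genes. Each full element also holds a pair of half-sites, so these counts overlap. A match describes the letters of the window and no binding was measured here.

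The RII genes had less transcript and lower mean levels in Phf21bΔ4/Δ4 mice, and neither passed the test. *Prkar2a* encodes RIIα and lies on chromosome 9 from 108689314 to 108750436 on the plus strand. Its level was 56.3, 58.9, and 52.4 CPM in Phf21bΔ4/Δ4 replicates 2, 3, and 6, and 61.6, 61.9, and 73.5 CPM in Phf21b+/+ replicates 5, 7, and 8. All 3 Phf21bΔ4/Δ4 mice were below the Phf21b+/+ mice by a narrow margin, and Phf21b+/+ replicate 8 stood above its group. The fold was 0.852, with a 95% interval of 0.726 to 1.0004 (log2 change -0.23, FDR 0.21, limma), and the log2 change stayed negative in all 17 alternatives. The *Prkar2a* promoter, also picked by name, is shown beside those of the RI genes. It runs over chr9:108691893-108692143 on the plus strand, up to the transcript start itself, with the half-site letters in capitals.

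Prkar2a: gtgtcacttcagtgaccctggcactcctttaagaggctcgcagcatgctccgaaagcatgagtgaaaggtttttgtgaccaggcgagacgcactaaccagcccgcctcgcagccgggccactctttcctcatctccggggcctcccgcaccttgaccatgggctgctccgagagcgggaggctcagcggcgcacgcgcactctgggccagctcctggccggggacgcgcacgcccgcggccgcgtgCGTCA

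Its half-site begins 4 bases before the start and reaches onto the first transcribed base, and no GC box was in the window. *Prkar2b* encodes RIIβ, which is common in the brain and in fat. It lies on chromosome 12 from 31958476 to 32061296 (minus strand). The level was 47.9, 71.7, and 41.3 CPM in Phf21bΔ4/Δ4 replicates 2, 3, and 6, and 54.6, 62.0, and 59.0 CPM in Phf21b+/+ replicates 5, 7, and 8. The groups overlapped, since Phf21bΔ4/Δ4 replicate 3 was the highest of all 6 mice and the other two were the lowest. The coefficient of variation was 29.8% among Phf21bΔ4/Δ4 and 6.30% among Phf21b+/+ mice. The 95% interval of the fold ran from 0.644 to 1.24 (log2 change -0.16, FDR 0.62, limma).

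Between genes, levels were compared as CPM per kb of annotated exon, in which exons that the hippocampus may not use count as well. In Phf21b+/+ mice, the order of the levels was *Prkar1a* (151 ± 8.66 CPM per kb, SD, n = 3), *Prkar1b* (96.5 ± 10.4), *Prkaca* (69.5 ± 2.10), *Prkacb* (48.8 ± 2.43), *Prkar2b* (16.0 ± 1.01), *Akap5* (13.6 ± 0.726), *Prkar2a* (10.3 ± 1.06), *Crtc1* (7.55 ± 1.44), *Creb1* (7.52 ± 0.167), and *Crem* (2.49 ± 0.262). Neighbours in this order did not overlap between mice, except *Crtc1* and *Creb1*. In Phf21bΔ4/Δ4 mice the order was the same but for *Akap5*, which at 25.0 CPM per kb ranked 5, above *Prkar2b* at 14.7 CPM per kb. Each Phf21bΔ4/Δ4 mouse had more *Akap5* than *Prkar2b* per kb, and each Phf21b+/+ mouse had less.

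Of the 4 regulatory subunit genes, 0 were called by limma or by voom and 1, *Prkar1b*, had an unadjusted p under 0.05, and of their shares of the regulatory transcript 2 of 4 did not overlap between the genotypes, where 31.0% of all listed genes did not overlap in level. As a share of the summed regulatory subunit CPM per kb, *Prkar1b* took 38.6%, 41.1%, and 39.2% in Phf21bΔ4/Δ4 replicates 2, 3, and 6, and 36.8%, 33.9%, and 34.9% in Phf21b+/+ replicates 5, 7, and 8. *Prkar2a* took 2.59%, 2.55%, and 2.78% in the former and 3.32%, 3.80%, and 4.20% in the latter. These are the shares that did not overlap, while those of *Prkar1a* and *Prkar2b* did. The ratio of RI to RII transcripts was 14.5, 11.5, and 14.1 in Phf21bΔ4/Δ4 and 10.8, 8.57, and 8.92 in Phf21b+/+ mice (means 13.4 ± 1.64 and 9.44 ± 1.22, SD, n = 3). Every Phf21bΔ4/Δ4 mouse lay above every Phf21b+/+ mouse in this ratio, with replicate 3 of the former and replicate 5 of the latter nearest to each other. These ratios carry no test, and the part of the CA1, dentate, and interneuron markers that differ between the same mice was not tested.

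Summed RII transcript per kb overlapped between the genotypes, at 21.9, 28.9, and 19.5 CPM per kb in Phf21bΔ4/Δ4 and 24.6, 26.7, and 27.7 CPM per kb in Phf21b+/+ mice. *Akap5* per unit of RII transcript was 1.07, 1.03, and 1.11 in Phf21bΔ4/Δ4 replicates 2, 3, and 6, and 0.549, 0.485, and 0.520 in Phf21b+/+ replicates 5, 7, and 8. Relative to its mean, this ratio had a narrower spread among the Phf21bΔ4/Δ4 mice than *Akap5* itself, with an SD of 0.0395 around 1.07. That was not so among the Phf21b+/+ mice. There the SD of the ratio was 0.0317 around 0.518, and that of *Akap5* was 4.96 CPM around 92.9 CPM. The ratio of regulatory to catalytic transcripts was 2.56 ± 0.0682 in Phf21bΔ4/Δ4 and 2.31 ± 0.0715 in Phf21b+/+ mice (SD, n = 3), again with no overlap. Of all listed genes, 31.0% did not overlap in level. The summed catalytic transcript per kb overlapped between the genotypes, and these ratios were not tested either.

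**Figure D3:**
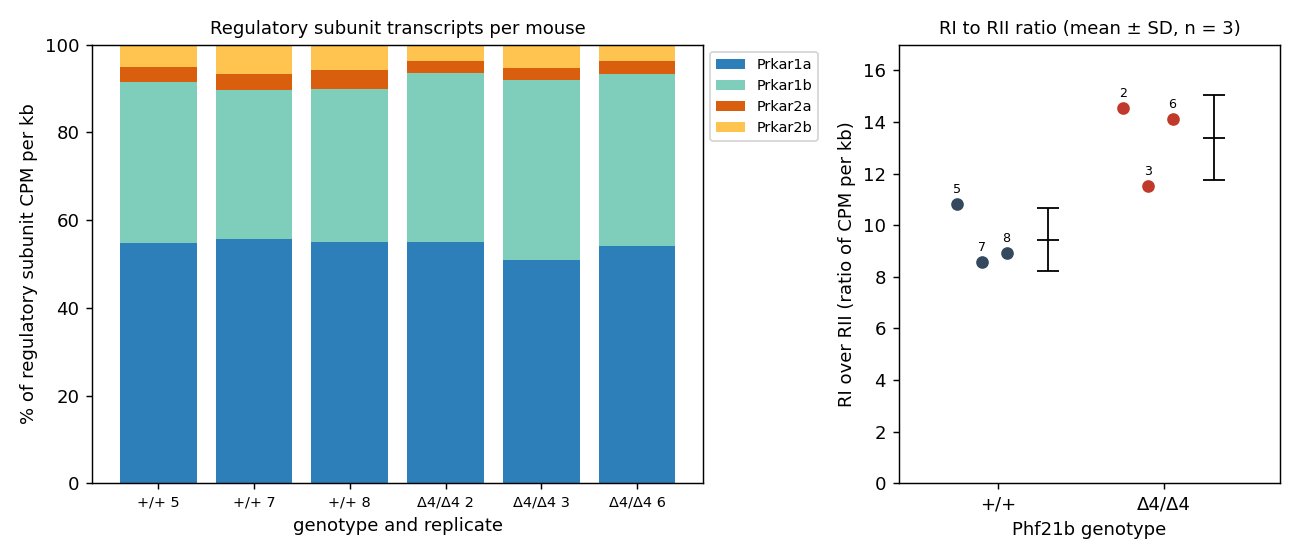
The stacked bars give the share of each regulatory subunit in the summed regulatory CPM per kb (vertical axis, %) for each mouse, and the points on the right give the ratio of RI (*Prkar1a* and *Prkar1b*) to RII (*Prkar2a* and *Prkar2b*) transcripts per mouse, with the mean ± SD (n = 3). RI transcripts make up most of every bar, and the ratio is 11.5 to 14.5 in Phf21bΔ4/Δ4 and 8.57 to 10.8 in Phf21b+/+ mice.

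The catalytic subunit genes did not pass the test, and their groups overlapped. *Prkaca* encodes Cα, the main catalytic subunit in most tissues, and lies on chromosome 8 from 83972993 to 83996443 on the plus strand. Its level was 192.4, 192.2, and 177.1 CPM in Phf21bΔ4/Δ4 replicates 2, 3, and 6, and 178.9, 169.4, and 170.5 CPM in Phf21b+/+ replicates 5, 7, and 8. The lowest Phf21bΔ4/Δ4 mouse was just below the highest Phf21b+/+ mouse. The fold was 1.08, with a 95% interval of 0.962 to 1.22 (log2 change 0.11, FDR 0.35, limma), and the log2 change was -0.03 after quantile normalization.

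*Prkacb* encodes Cβ, which has several brain forms made from different first exons, and lies on chromosome 3 from 146729574 to 146812990 (minus strand). The level was 489.9, 596.6, and 362.9 CPM in Phf21bΔ4/Δ4 replicates 2, 3, and 6, and 449.6, 407.0, and 428.2 CPM in Phf21b+/+ replicates 5, 7, and 8. The Phf21bΔ4/Δ4 mice held both the highest and the lowest value of all 6, with a coefficient of variation of 24.2% against 4.98%. The 95% interval of the fold ran from 0.824 to 1.49 (log2 change 0.15, FDR 0.62, limma), so a change of 1.3-fold upward lies inside it. *Prkaca* made up 58.2% ± 5.03 of the catalytic transcript per kb in Phf21bΔ4/Δ4 and 58.8% ± 0.625 in Phf21b+/+ mice (SD, n = 3).

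Within the Phf21bΔ4/Δ4 genotype, replicate 3 had the highest level in 6 of the 10 genes and replicate 6 the lowest in 7 of the 10. The same counts over all listed genes are not given here, so this order cannot be called particular to the members. The summed dentate granule cell markers were 885 and 829 CPM in replicates 2 and 3 and 1532 CPM in replicate 6, and oligodendrocyte markers summed to 6343, 6533, and 9637 CPM in the same mice. The part of this difference among mice in the members' spread was not tested.

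The 3 CREB factor genes were not called, and of these only *Creb1* had an interval that lay within 1.3-fold in both directions. *Creb1* encodes the transcription factor that PKA phosphorylates, and lies on chromosome 1 from 64532645 to 64604548 on the plus strand. Its level was 98.4, 98.3, and 100.6 CPM in Phf21bΔ4/Δ4 replicates 2, 3, and 6, and 104.4, 100.7, and 104.8 CPM in Phf21b+/+ replicates 5, 7, and 8. Although the genotypes did not overlap, the nearest mice were at 100.57 and 100.65 CPM. The 95% interval of the fold, 0.866 to 1.06, was the narrowest of the 10 genes and lay within 1.3-fold in both directions (log2 change -0.06, FDR 0.56, limma).

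*Crtc1* encodes the CREB coactivator that is most abundant in the brain, and lies on chromosome 8 from 70382355 to 70439579 (minus strand). The level was 87.0, 93.9, and 87.5 CPM in Phf21bΔ4/Δ4 replicates 2, 3, and 6, and 82.2, 69.5, and 101.6 CPM in Phf21b+/+ replicates 5, 7, and 8. Here the spread was on the side of the Phf21b+/+ mice, with a coefficient of variation of 19.1% against 4.31%, and their lowest mouse was replicate 7. The log2 change was 0.10 (95% interval -0.23 to 0.43, FDR 0.66, limma) and was -0.03 without that replicate.

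*Crem* encodes both activators and the inducible repressor ICER, which is made from an internal promoter, and the values do not separate these forms. Its level was 13.5, 16.1, and 16.7 CPM in Phf21bΔ4/Δ4 replicates 2, 3, and 6, and 13.5, 14.1, and 16.4 CPM in Phf21b+/+ replicates 5, 7, and 8, from 284 to 384 reads. The groups overlapped over nearly their whole range (log2 change 0.07, 95% interval -0.23 to 0.38, FDR 0.73, limma). The exons of *Crem* share 472 bases with *Gm6225* on the opposite strand, a listed gene, and the strand setting of the counting is not given, so reads of the pair cannot be told apart there. The ratio of *Crem* to *Creb1* transcript per kb was 0.363 ± 0.0370 in Phf21bΔ4/Δ4 and 0.331 ± 0.0322 in Phf21b+/+ mice (SD, n = 3) and overlapped.

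**Figure D4:**
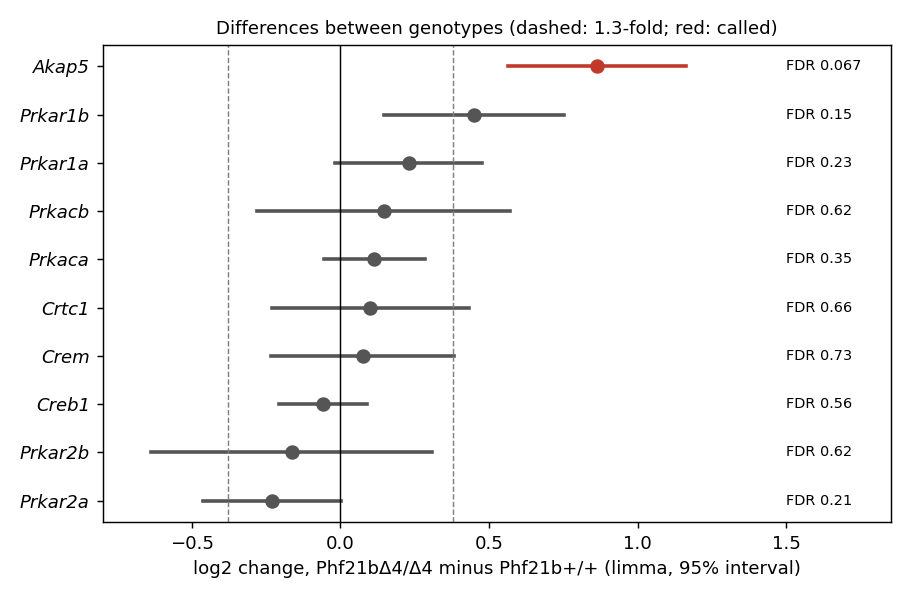
Points give the log2 change between Phf21bΔ4/Δ4 and Phf21b+/+ mice (horizontal axis) for each of the 10 genes, bars the 95% interval from limma, and dashed lines a 1.3-fold change; the called gene is in red, with the FDR at the right. *Akap5*, at 0.86, is the 1 gene whose interval (0.56 to 1.16) lies wholly beyond the dashed line.

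Around the 10 genes, 124 of 128 other genes of the pathway were listed, in 6 groups, and 6 of them rose and 1 fell in Phf21bΔ4/Δ4 mice (5.65% called, against 1.22% of all listed genes). Their median log2 change was 0.08. The groups were written with earlier results of these data known, so the count describes them and is no test. The genotype difference in CA1, dentate, and habenula markers given above stands beside each of these genes too, and its part in them was not tested.

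Among PKA inhibitors and related kinases, 1 of 8 listed genes was called. *Pkia*, which encodes the α form of the heat-stable inhibitor that blocks the free catalytic subunit, was 245.0, 256.9, and 258.2 CPM in Phf21bΔ4/Δ4 replicates 2, 3, and 6, and 334.6, 325.7, and 339.0 CPM in Phf21b+/+ replicates 5, 7, and 8. It fell by 0.39 on the log2 scale (FDR 0.089, limma), with a small spread in both genotypes, but was not called by voom on the reads. Of the 8 genes, 7 had a negative log2 change, with a median of -0.24. The inhibitor genes *Pkib* and *Pkig* had log2 changes of -0.14 and -0.50 and were not called (FDR 0.43 and 0.18, limma).

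Among 20 genes whose proteins are held at the AKAP5 scaffold or act there, 2 rose and the other 18 did not pass. *Prkcb*, for PKCβ, was 734.7, 848.6, and 770.6 CPM in Phf21bΔ4/Δ4 replicates 2, 3, and 6, and 476.5, 397.5, and 528.2 CPM in Phf21b+/+ replicates 5, 7, and 8 (log2 change 0.75, FDR 0.081, limma). The genotypes were well apart in *Prkcb*, and voom on the reads called it too. Of the 20 genes, 17 had a positive log2 change, with a median of 0.28. The calcineurin catalytic genes *Ppp3ca* and *Ppp3cb* had log2 changes of -0.13 and 0.28 and the AMPA receptor gene *Gria1* 0.27, and these 3, named here after their values were seen, were not called.

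Of the 25 other listed A-kinase anchoring protein genes, 0 were called by limma or by voom on the reads, 12 (48.0%) had an unadjusted p under 0.05, against 23.6% of all listed genes, and 13 had genotypes that did not overlap, 9 higher and 4 lower, against 31.0% of all listed genes. Their median log2 change was 0.14. The largest positive values were those of *Wasf1* (0.67, FDR 0.15, limma), for the actin regulator WAVE1, and *Cmya5* (0.52, FDR 0.15, limma). The largest negative ones were those of *Akap14* (-1.84, FDR 0.16, limma) and *Ezr* (-0.82, FDR 0.21, limma). *Akap14* and *Ezr* were both highest in Phf21b+/+ replicate 7, at 1.77 and 171.5 CPM, and next highest in replicate 8, at 1.48 and 99.4 CPM. These are the 2 libraries with choroid plexus markers, and the part of that tissue in their values was not tested.

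Kinases and phosphatases of CREB and CRTC gave 1 call among 21 listed genes. *Camk4*, for the nuclear calcium/calmodulin-dependent kinase that phosphorylates CREB at the same site as PKA, was 97.2, 99.3, and 73.2 CPM in Phf21bΔ4/Δ4 replicates 2, 3, and 6, and 52.7, 39.0, and 48.2 CPM in Phf21b+/+ replicates 5, 7, and 8 (log2 change 0.95, FDR 0.081, limma). The groups were apart, with Phf21bΔ4/Δ4 replicate 6 nearest to the Phf21b+/+ mice. The median log2 change of this group was 0.004. Of the 15 other listed CREB family and coactivator genes, 0 were called by limma or by voom, and 2 (13.3%) had an unadjusted p under 0.05. The largest positive values among them were those of the acetyltransferase genes *Crebbp* (0.36, FDR 0.28, limma) and *Ep300* (0.22, FDR 0.56, limma), and the largest negative ones those of *Creb3l1* (-0.49, FDR 0.31, limma) and *Crebrf* (-0.45, FDR 0.13, limma).

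Of the 36 listed CREB target genes, 3 rose and 0 fell by limma and by voom, with an unadjusted p under 0.05 in 8 that were higher and 3 that were lower (30.6% in all, against 23.6% of all listed genes), and 20 had a positive and 16 a negative log2 change, with a median of 0.06. *Nr4a1*, an orphan nuclear receptor of the immediate early type, was 24.2, 23.4, and 25.3 CPM in Phf21bΔ4/Δ4 replicates 2, 3, and 6, and 13.9, 15.1, and 14.2 CPM in Phf21b+/+ replicates 5, 7, and 8 (log2 change 0.76, FDR 0.046, limma). *Homer1*, a postsynaptic scaffold with an activity-induced short form, was 253.5, 246.0, and 274.4 CPM in the former and 173.9, 163.5, and 182.5 CPM in the latter (log2 change 0.57, FDR 0.065, limma). *Vgf*, for a secreted neuropeptide precursor, was 101.6, 118.9, and 86.8 CPM against 63.1, 45.5, and 54.7 CPM (log2 change 0.91, FDR 0.084, limma). In all 3 genes each Phf21bΔ4/Δ4 mouse was above each Phf21b+/+ mouse. Other well-known targets, named here after their values were seen, did not pass: the log2 changes were -0.27 for *Fos* (FDR 0.58, limma), -0.27 for *Bdnf* (FDR 0.57, limma), 0.08 for *Arc* (FDR 0.83, limma), and 0.92 for *Egr1* (FDR 0.12, limma).

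**Figure D5:**
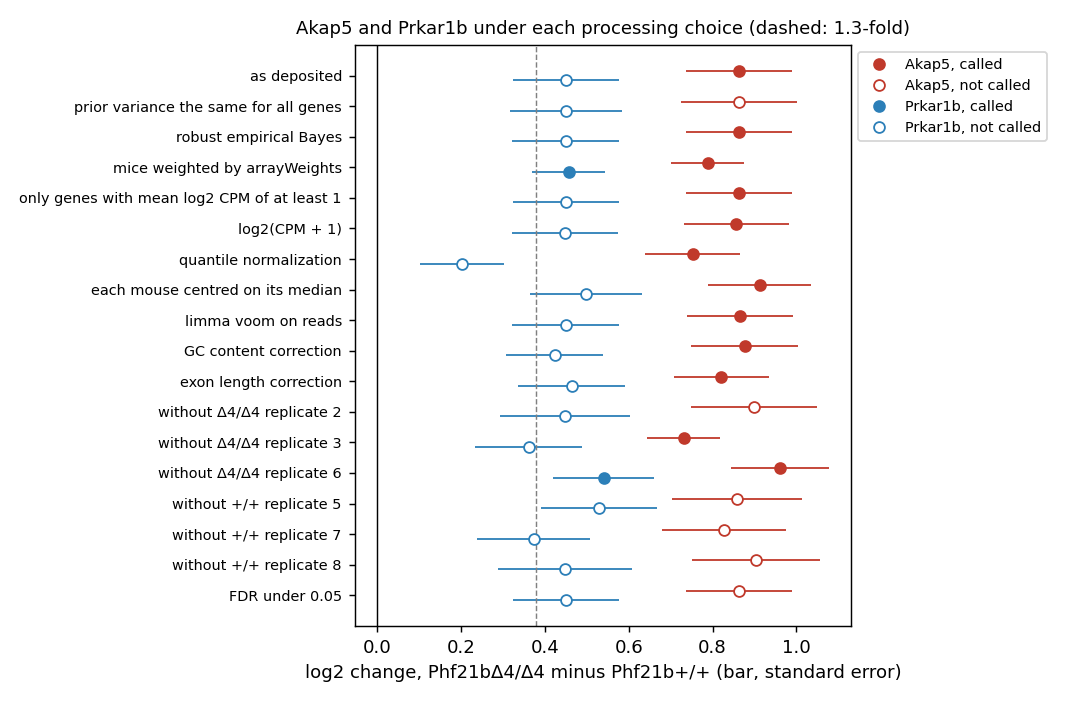
The log2 change (horizontal axis, bar for the standard error) of *Akap5* and *Prkar1b* is drawn for the values as deposited and for 17 alternatives, with filled points where the gene passed the thresholds and a dashed line at 1.3-fold. *Akap5* stays between 0.73 and 0.96 and is called in 11 of the 17, and *Prkar1b* stays between 0.20 and 0.54 and is called in 2.

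Over 17 alternatives, the call of *Akap5* was kept in 11 and its log2 change was positive in all. *Prkar1b* was called in 2 of them and was positive in all. *Prkar2a* and *Creb1* had a negative log2 change and *Akap5* and *Prkar1b* a positive one in every alternative, while the other 6 genes turned sign in 1 or 2 alternatives each, in which they were not called.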

How the data were processed

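Hippocampal RNA-Seq values of 3 Phf21bΔ4/Δ4 and 3 Phf21b+/+ mice were analysed, grouped by sample label. Per the submitters' processing notes, the authors trimmed reads with Trimmomatic 0.39, mapped them to GRCm38 with STAR 2.7.3a, and counted them over GENCODE genes with featureCounts of Subread 1.6.4. The strand setting of the counting is not given in the sources used here. The authors state a filter of 1 CPM in 2 or more samples, scaled to effective library size, and deposited log2 CPM values of 14477 genes, of which 14439 reach that filter in the deposited values. These values were whole multiples of 1 read after the lowest value was removed (100% within a tolerance of 0.1), which gave reads and CPM per mouse. Reads on listed genes ranged from 20495605 to 24881257 per mouse, and 3 reads were 0.127 to 0.143 CPM, which covers counting error only.

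Phf21bΔ4/Δ4 and Phf21b+/+ mice were compared by fitting the deposited log2 values of all genes with limma 3.58.1 in R 4.3.3 (lmFit, eBayes with trend, no covariate, 2-sided), with Benjamini-Hochberg adjustment. A gene was called at an FDR under 0.1 and a fold above 1.3, the thresholds of the study's methods. P-values rest on the spread between these mice, with each gene's variance drawn toward a trend fitted over all genes. Composition, ratios, and lists were described without a test. The fit was tested on simulated data. Exon lengths came from GENCODE M21 on GRCm38, in which 14277 symbols (98.6%) were found, and promoter windows from RefSeq on GRCm38.p6. Crem had no window there.

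Members and lists were chosen with earlier results of these data known. The study's own list of changed genes, drawn from the same mice, holds *Akap5*, *Htr1a*, *Pld3*, *Camk4*, *Prkcb*, *Nr4a1*, *Homer1*, *Vgf*, and *Gad2*. It also holds the called CA1 markers, most of the habenula markers, and some thalamus markers. The counts of their lists are therefore not independent evidence. Named are the 10 members, *Phf21b*, pathway genes that passed (a result under this rule is not reported here), the 2 largest values in each direction of a list where none passed, the 3 marker genes with the highest mean CPM (given here for the CA1 and dentate lists), and the 5 genes most like *Akap5*. *Gpr161*, *Gad2*, *Pkib*, and *Pkig* were named after their values were seen. The ratios to CA1 markers were added after the data were seen. The 17 alternatives were another prior variance, robust fitting, arrayWeights, a low-value filter, a pseudocount of 1, quantile normalization, median centring, voom on reads, corrections for GC content and exon length, an FDR under 0.05, and leaving out each mouse. Python 3.11.15, pandas 2.3.3, and matplotlib 3.10.9 drew the plots.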

Additional observations from a re-analysis of the deposited data

How the results depend on the processing

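No paired analysis was made because the labels give no litter or other pairing of the mice. The number of genes called, 176 with the values as deposited, was 75 with 1 prior variance for all genes, 3549 with arrayWeights, 101 among genes of mean log2 CPM 1 or more, and 25 at an FDR under 0.05, and it ranged from 9 without Phf21b+/+ replicate 8 to 2830 without Phf21bΔ4/Δ4 replicate 6. Of the 10 genes, 1 was called as deposited, 0 with 1 prior variance or at an FDR under 0.05, 2 with arrayWeights (*Akap5* and *Prkar1b*), and 0 to 2 with each mouse left out. *Akap5* kept its log2 change of 0.86 but not its call with 1 prior variance (FDR 0.12) and at an FDR under 0.05 (FDR 0.067), and lay between 0.73 and 0.96 with each mouse left out. *Phf21b* was called with arrayWeights (-1.32, FDR 0.012) and lay between -1.12 and -0.70 with each mouse left out. Log2 changes that turned sign, none of them called, were -0.13 for *Crem* and -0.10 for *Crtc1* with arrayWeights, -0.031 for *Prkaca*, -0.10 for *Prkacb*, and -0.034 for *Prkar1a* after quantile normalization, -0.021 for *Prkacb* without Phf21bΔ4/Δ4 replicate 3, 0.0040 for *Prkar2b* without Phf21bΔ4/Δ4 replicate 6, and -0.031 for *Crtc1* without Phf21b+/+ replicate 7. With each mouse left out, *Prkacb* ranged from -0.021 to 0.34, *Prkar2b* from -0.39 to 0.0040, and *Crtc1* from -0.031 to 0.24. The cause of these changes was not tested. With 3 mice per genotype, the 95% interval of every uncalled member but *Prkaca* and *Creb1* allows a change beyond 1.3-fold in 1 direction or both. The sex, batch, and dissection of each mouse are not given in the sources used here, so they cannot be set against these results.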
